A study of Mus musculus with 10 samples.

Results

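The small leucine-rich proteoglycans examined here were Dcn, Bgn, Lum, Fmod, Ogn, Omd, Prelp, Aspn, Kera and Epyc. They were taken by gene name from the count tables, so that the 10 members are 10 of the 24391 gene names counted. RNA sequencing was performed on bilateral whole hippocampus of 10 male mice, 1 library per mouse, collected 4 days after surgery to study the transcriptional response to subarachnoid hemorrhage (SAH). The 4 SAH mice (1 to 4) had a filament advanced through the internal carotid artery until it perforated the Circle of Willis on one side, and were kept in the study if cerebral blood flow dropped at perforation. In the 3 Sham mice (5 to 7) the filament was stopped at the point of resistance without puncture, and the 3 Naive mice (8 to 10) had no operation. The study's methods give the strain as C56BL/6J and the age as 10 to 14 weeks, and the labels give no transgene and no drug treatment. The operated mice were under isoflurane anesthesia. Sham and Naive mice were pooled as the 6 control mice.

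Small leucine-rich proteoglycans are secreted proteins built from leucine-rich repeats, most of which carry chondroitin, dermatan or keratan sulfate chains. They bind collagen fibrils and set their assembly and spacing, and they also bind growth factors such as transforming growth factor beta and, in the case of biglycan, Toll-like receptors. In the brain, RNA of this family is known mainly from fibroblasts of the meninges and of the vessel walls, with less in other cell types.

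Depth lay between 19743388 and 27254655 counts per mouse (SAH 20099076 to 26866167), and no library was a duplicate of another. In a chi-square comparison of counts over genes, the SAH mouse 3 library stood apart from the other 9 (15.3 to 26.95 per degree of freedom), followed by SAH mouse 4 (9.50 to 16.5 against the remaining 8), whereas pairs without these mice gave 3.62 to 9.84. Hippocampal marker genes (Prox1, Dsp, C1ql2, Wfs1, Fibcd1 and Zbtb20) were read in every mouse, with a summed level of 514.7 to 656.5 CPM (counts relative to each library, scaled by TMM). Choroid plexus genes differed widely between libraries, with summed levels of 113.5 to 1269 CPM in SAH, 65.4 to 863 CPM in Sham and 55.2 to 76.7 CPM in Naive mice. SAH mouse 3 had the highest of these levels, and it had the lowest level of the 4 SAH mice for 7 of the 8 members that could be tested.

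The members lie in clusters in the mouse genome (build mm9). Dcn (chromosome 10, 96942134 to 96980796, plus strand) was followed by Lum (97028135 to 97035337), Kera (97069839 to 97076322) and Epyc (97106702 to 97144534), all on the plus strand. Aspn (chromosome 13, 49639812 to 49662931), Omd (49678116 to 49687978) and Ogn (49703440 to 49719869) lay next to each other on the plus strand within the span of Cenpp, a centromere protein gene, with 15184 bases between Aspn and Omd and 15461 between Omd and Ogn. Prelp (chromosome 1, 135806882 to 135817978, minus strand) and Fmod (135934092 to 135944854, plus strand) were neighbours 116113 bases apart, and Bgn lay alone on chromosome X (70728974 to 70741275, plus strand). Among the members, Epyc shared 487 exon bases with a gene on the opposite strand, Gm10754, and the other 9 shared no exon base with another gene.

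The 200 bases before the annotated start are shown for 5 members. Fmod, Bgn, Ogn and Lum were called higher in SAH than in the pooled control mice whichever mouse was left out. These calls were lost with the Sham mice alone as control. Dcn, the most abundant member, was not called. Capitals mark matches to the letters searched on both strands, which were CAGAC (bound by SMAD factors), GGGCGG (bound by SP1) and GGAATG (bound by TEAD factors). All are written 5′ to 3′ on the plus strand of mm9, where these 5 genes lie. The windows are chr1:135933631-135933830 for Fmod, chrX:70728741-70728940 for Bgn, chr13:49703240-49703439 for Ogn, chr10:97027935-97028134 for Lum and chr10:96941934-96942133 for Dcn.
Fmod: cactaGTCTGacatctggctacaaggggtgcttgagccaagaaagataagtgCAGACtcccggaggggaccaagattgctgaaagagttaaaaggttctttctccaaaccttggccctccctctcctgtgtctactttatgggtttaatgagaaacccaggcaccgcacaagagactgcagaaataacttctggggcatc
Bgn: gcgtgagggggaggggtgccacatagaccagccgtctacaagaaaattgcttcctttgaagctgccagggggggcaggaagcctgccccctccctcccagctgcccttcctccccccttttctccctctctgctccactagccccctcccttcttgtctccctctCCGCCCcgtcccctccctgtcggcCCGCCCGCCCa
Ogn: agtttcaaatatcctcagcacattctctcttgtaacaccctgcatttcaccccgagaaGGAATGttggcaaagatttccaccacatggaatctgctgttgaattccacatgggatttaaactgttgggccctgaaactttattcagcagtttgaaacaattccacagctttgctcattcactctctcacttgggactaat
Lum: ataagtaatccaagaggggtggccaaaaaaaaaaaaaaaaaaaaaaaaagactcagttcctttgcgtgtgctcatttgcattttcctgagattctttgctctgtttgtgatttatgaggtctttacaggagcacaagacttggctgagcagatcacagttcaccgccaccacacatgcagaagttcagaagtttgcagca
Dcn: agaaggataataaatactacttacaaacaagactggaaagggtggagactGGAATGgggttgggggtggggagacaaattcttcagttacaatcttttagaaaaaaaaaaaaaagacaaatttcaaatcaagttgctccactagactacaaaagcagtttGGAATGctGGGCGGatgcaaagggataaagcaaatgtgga
The Fmod window held 2 CAGAC matches, the Bgn window 3 GGGCGG matches of which the last pair overlap, and the Ogn window 1 GGAATG match. The Dcn window held 2 GGAATG matches and 1 GGGCGG match, and the Lum window held no match. Over the 10 members, CAGAC was found in 3 windows (33.9% of all 24181 gene windows of this length), GGGCGG in 2 (37.2%) and GGAATG in 2 (9.36%). TATAAA was found in 1 member window, that of Aspn (9.76%), and TGANTCA (bound by AP-1, 5.09%) and the repeat of GAAA after a gap of 2 bases (an interferon response motif, 2.45%) in 0. The GC content was 66.5% for Bgn, 49% for Fmod, 42% for Ogn, 40.5% for Lum and 38.5% for Dcn, beside a median of 55% over all windows. These matches are a description of the letters in the windows.

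Levels of different genes were compared per kilobase of exon. In the control mice Dcn was the most abundant member, at 31.9 ± 5.97 CPM per kilobase (SD, n = 6). Prelp followed at 9.59 ± 0.498 and Bgn at 6.33 ± 0.629 CPM per kilobase. Ogn (2.22 ± 0.560), Fmod (2.05 ± 0.907) and Lum (2.01 ± 0.508) came next, and these 3 means lay within 1 SD of each other. Aspn (0.663 ± 0.159) and Omd (0.318 ± 0.160) were lower, and Epyc and Kera were close to 0. In the SAH mice Dcn was still first, at 34.5 ± 7.58 CPM per kilobase (SD, n = 4), and Bgn (11.7 ± 2.26) and Prelp (11.1 ± 2.39) overlapped. Fmod stood at 8.82 ± 3.83 CPM per kilobase in SAH, above Ogn (5.79 ± 2.86) and Lum (4.41 ± 1.07), and Fmod exceeded both in each of the 4 SAH mice.

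**Figure D1:**
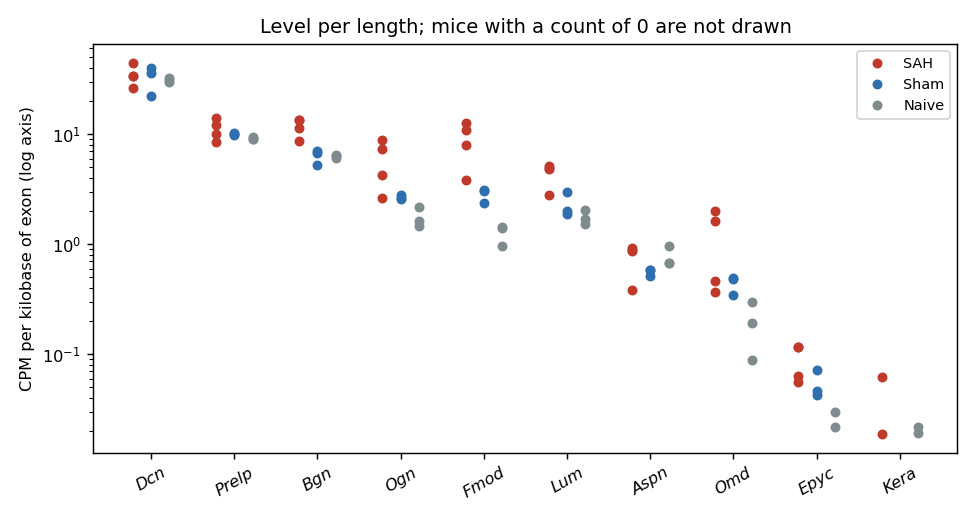
Level of each member in CPM per kilobase of exon on a log axis, with 1 point per mouse for SAH, Sham and Naive mice, leaving out mice with a count of 0. Dcn had the highest mean in every group, and the Fmod mean was 2.05 CPM per kilobase in control and 8.82 in SAH.

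Of the 10 members, 8 had enough counts to be tested, and 5 of these 8 were higher in SAH than in control mice (Fmod, Omd, Ogn, Lum and Bgn), with 0 lower. Over all 14993 genes tested, 3.13% were called higher and 1.54% lower by edgeR's quasi-likelihood test at an adjusted p under 0.10. The median log2 fold change of the 8 members was 1.01, beside -0.0024 over all genes tested. In bulk tissue, more cells of a type and more RNA per cell cannot be told apart. With the Sham mice alone as control, 0 of the 8 were called (edgeR's adjusted p 0.144 to 0.624 for these 5, with 12 of 15051 genes called higher). Marker genes of fibroblasts, smooth muscle, endothelium and border macrophages were also called higher, and their values are given after the members.

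Fmod encodes fibromodulin, a keratan sulfate proteoglycan that binds type I collagen and guides fibril growth. Its levels were 35.8, 31.3, 10.96 and 22.8 CPM in SAH mice 1 to 4, 8.87, 8.64 and 6.72 CPM in the Sham mice and 4.10, 2.78 and 3.99 CPM in the Naive mice. All SAH mice exceeded all control mice, SAH mouse 3 was the closest to them, and the Sham mice all lay above the Naive mice. The SAH mean of 25.2 ± 10.9 CPM (SD, n = 4) compared with 5.85 ± 2.59 CPM (SD, n = 6) for the control mice. The log2 fold change was 2.10 (SE 0.32), or 4.27-fold, with an adjusted p of 0.00440 by edgeR's quasi-likelihood test, the largest change among the members.

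Lum encodes lumican, a keratan sulfate proteoglycan needed for regular collagen fibrils in the cornea. Its levels were 10.6, 9.93, 5.86 and 10.2 CPM in SAH mice 1 to 4, 3.88, 4.15 and 6.15 CPM in Sham and 3.50, 3.14 and 4.20 CPM in Naive mice. SAH mouse 3 and Sham mouse 7 overlapped, and the other SAH mice exceeded all control mice. The log2 fold change was 1.13 (SE 0.19), or 2.19-fold, with an adjusted p of 0.00596 by edgeR.

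Omd encodes osteomodulin, also called osteoadherin, a keratan sulfate proteoglycan of mineralized tissue. It was read at 3.53, 2.83, 0.808 and 0.640 CPM in SAH mice 1 to 4, from 73, 77, 16 and 16 counts. The Sham mice had 0.867, 0.846 and 0.603 CPM and the Naive mice 0.527, 0.154 and 0.340 CPM. SAH mice 1 and 2 were high, and SAH mice 3 and 4 lay within the range of the Sham mice. The log2 fold change of 1.77 (SE 0.48, adjusted p = 0.0718 by edgeR) passed the threshold in 4 of 10 fits, each without 1 of the mice. It was lost without SAH mouse 1 or 2, Sham mouse 7, or any 1 Naive mouse, and the log2 fold change in these 10 fits ran from 1.35 to 2.07.

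Ogn encodes osteoglycin, also called mimecan, which acts on collagen fibril size. It was read at 22.7, 18.6, 6.67 and 10.9 CPM in SAH mice 1 to 4, 6.56, 7.17 and 6.68 CPM in Sham and 3.72, 4.17 and 5.52 CPM in Naive mice. SAH mouse 3 lay among the Sham mice, the other SAH mice exceeded all control mice, and each Sham mouse lay above each Naive mouse. The SAH mean was 14.7 ± 7.26 CPM (SD, n = 4) and the control mean 5.64 ± 1.42 CPM (SD, n = 6). The change was 1.38 on the log2 scale (SE 0.28), or 2.60-fold, with an adjusted p of 0.0180 by edgeR.

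Bgn encodes biglycan, a chondroitin and dermatan sulfate proteoglycan that can signal through Toll-like receptors when released from the matrix. It was read at 32.1, 27.1, 20.5 and 31.8 CPM in SAH mice 1 to 4, 12.5, 16.9 and 16.1 CPM in Sham and 15.1, 15.6 and 14.5 CPM in Naive mice. All SAH mice exceeded all control mice, and Sham and Naive mice overlapped. The SAH mean was 27.9 ± 5.40 CPM (SD, n = 4), with 15.1 ± 1.504 CPM (SD, n = 6) for the control mice. Bgn had the smallest SE of the 5, with a log2 fold change of 0.88 (SE 0.11), or 1.84-fold, and an adjusted p of 0.00201 by edgeR.

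**Figure D2:**
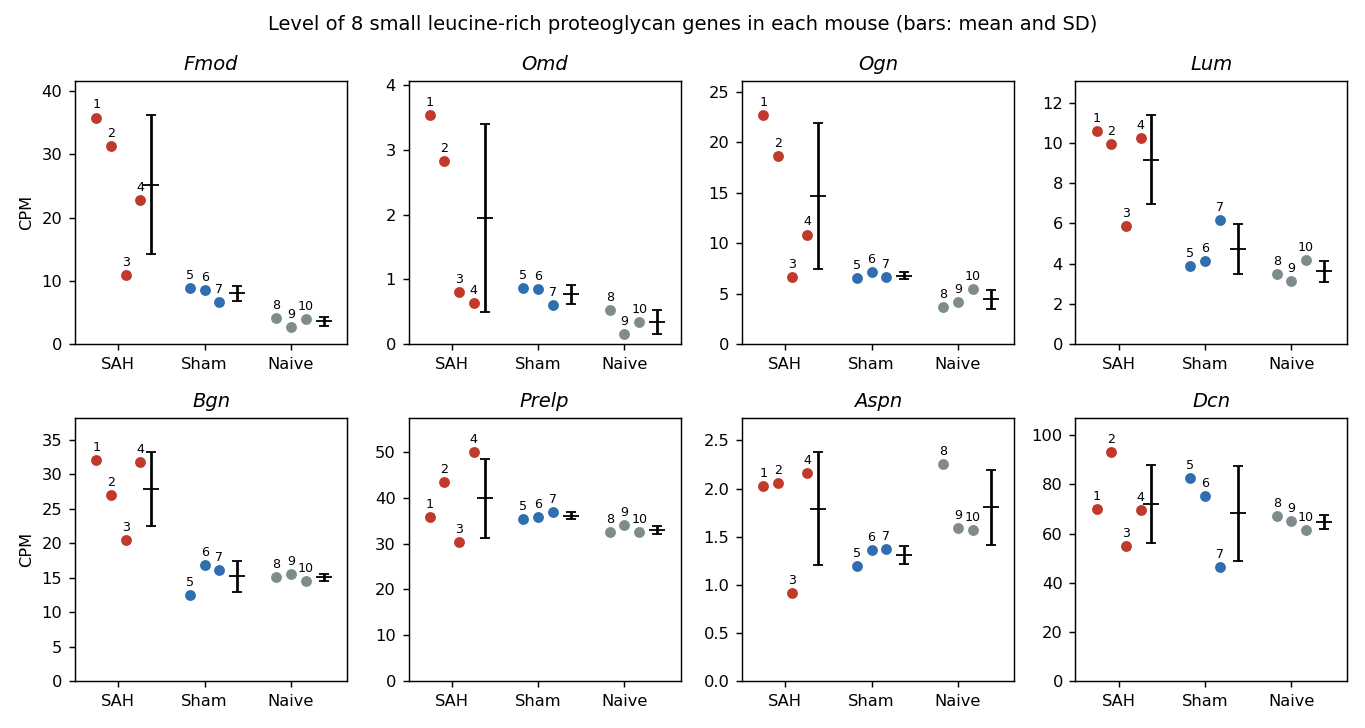
CPM of each of the 8 tested members in the 4 SAH, 3 Sham and 3 Naive mice, with 1 numbered point per mouse and black bars for the mean and SD of each group. For Fmod and Bgn the SAH and control mice did not overlap, and for the other 6 members they did.

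The 4 SAH mice all exceeded the 6 control mice in CPM for 2 of the 8 tested members, Fmod and Bgn, beside 2.83% of all genes tested.

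Dcn, Prelp and Aspn did not pass the threshold. Dcn encodes decorin, a collagen-binding proteoglycan that also binds transforming growth factor beta. It was read at 70.02, 93.2, 55.0 and 69.6 CPM in SAH mice 1 to 4, 82.7, 75.4 and 46.4 CPM in Sham and 67.3, 64.9 and 61.6 CPM in Naive mice. The 3 groups overlapped, and the log2 fold change was 0.12 (SE 0.15, adjusted p = 0.714 by edgeR). Prelp encodes prolargin, which anchors basement membranes to collagen through heparan sulfate. It ranged from 30.4 to 50.0 CPM in SAH and from 32.5 to 36.9 CPM in control, with a log2 fold change of 0.21 (SE 0.11, adjusted p = 0.332 by edgeR). Without SAH mouse 3 the Prelp change of 0.32 passed the threshold (edgeR's adjusted p = 0.0491). Aspn encodes asporin, an inhibitor of transforming growth factor beta that has no typical sugar chain. It ranged from 0.909 to 2.16 CPM in SAH and from 1.20 to 2.26 CPM in control, with a log2 fold change of 0.21 (SE 0.24, adjusted p = 0.678 by edgeR).

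Kera, which encodes the corneal keratocan, and Epyc, which encodes the cartilage proteoglycan epiphycan, were kept out of the test by their low counts. Kera had 0, 1, 0 and 3 counts in SAH mice 1 to 4, 0 in each Sham mouse and 1, 0 and 1 in the Naive mice. Epyc had 2, 3, 4 and 5 counts in SAH, 3, 2 and 2 in Sham and 1, 1 and 0 in Naive mice. Both were near the 3 counts that a count of 0 allows. In a fit with no filter on low counts, the adjusted p of SAH against control by edgeR was 0.576 for Kera and 0.333 for Epyc (unadjusted p = 0.0476).

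Each kind of control was then compared alone, in a fit of the 3 groups that uses the same SAH mice in both comparisons. Against Sham, 3 of the 8 tested members were higher (Fmod, Lum and Bgn) and 0 lower, beside 0.547% of all genes called higher and 0.2% lower. The log2 fold changes were 1.65 (SE 0.31, adjusted p = 0.0508 by edgeR) for Fmod and 0.96 (SE 0.21, adjusted p = 0.0973) for Lum. Bgn changed by 0.88 (SE 0.14, adjusted p = 0.0400 by edgeR). Ogn (1.11, adjusted p = 0.213 by edgeR) and Omd (1.33, adjusted p = 0.448) did not pass. Every SAH mouse lay above every Sham mouse for 2 members, Fmod and Bgn, beside 5.0% of all genes. This count of 3 rests on few mice. With only the SAH and Sham mice in the fit, 0 members and 12 of all 15051 genes tested were called higher, with log2 fold changes of 1.65 for Fmod, 0.96 for Lum and 0.87 for Bgn. Without SAH mouse 4 or any 1 Sham mouse, 0 members were called, and 6 to 18 of all genes were called higher. Without Naive mouse 8, 1 member was called, beside 35 of all 14931 genes called higher. Without Naive mouse 10 it was also 1 member, beside 39 of 14996. The Lum call held in 1 of the 10 fits without 1 mouse, that without SAH mouse 3, and was lost with library size alone (edgeR's adjusted p = 0.106) and with at least 10 counts required in each mouse (adjusted p = 0.101).

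Against Naive mice, 5 members were higher and 0 lower, beside 1.99% of all genes called higher and 0.94% lower. The log2 fold changes were 2.79 (SE 0.34, adjusted p = 0.00185 by edgeR) for Fmod, 2.45 (SE 0.63, adjusted p = 0.0780) for Omd and 1.72 (SE 0.34, adjusted p = 0.0240) for Ogn. They were 1.34 (SE 0.22, adjusted p = 0.0101 by edgeR) for Lum and 0.89 (SE 0.15, adjusted p = 0.00978) for Bgn. Every SAH mouse lay above every Naive mouse for these 5 members, beside 6.98% of all genes. Without Naive mouse 8 the count was 3, with 88 of all 14931 genes called higher, and without Naive mouse 9 it was also 3, with 107 of 14991. The Omd call against Naive held in 2 of the 10 fits without 1 mouse, those without SAH mouse 3 or 4, and was lost in the robust fit (edgeR's adjusted p = 0.109) and with only the SAH and Naive mice (adjusted p = 0.157).

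Between Sham and Naive mice, 0 members were called by edgeR at an adjusted p under 0.10, and 0 by DESeq2, beside 0.00667% of all genes called higher by edgeR. At an unadjusted p under 0.05, 1 member, Fmod, differed (log2 fold change 1.14, SE 0.37, unadjusted p = 0.00952 by edgeR), beside 2.0% of all genes. With only the Sham and Naive mice in the fit, Fmod passed the threshold (edgeR's adjusted p = 0.0533), as 1 of 2 genes called higher and 1 lower among 14855 tested. Every Sham mouse lay above every Naive mouse for 4 members (Fmod, Ogn, Omd and Prelp), beside 4.83% of all genes, and below for 1, Aspn, beside 4.17%. The log2 fold changes were 1.11 for Omd, 0.61 for Ogn and 0.38 for Lum, and they were 0.01 for Bgn and 0.08 for Dcn. Whether the Fmod change from Naive to Sham differs from that of Bgn was not tested.

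**Figure D3:**
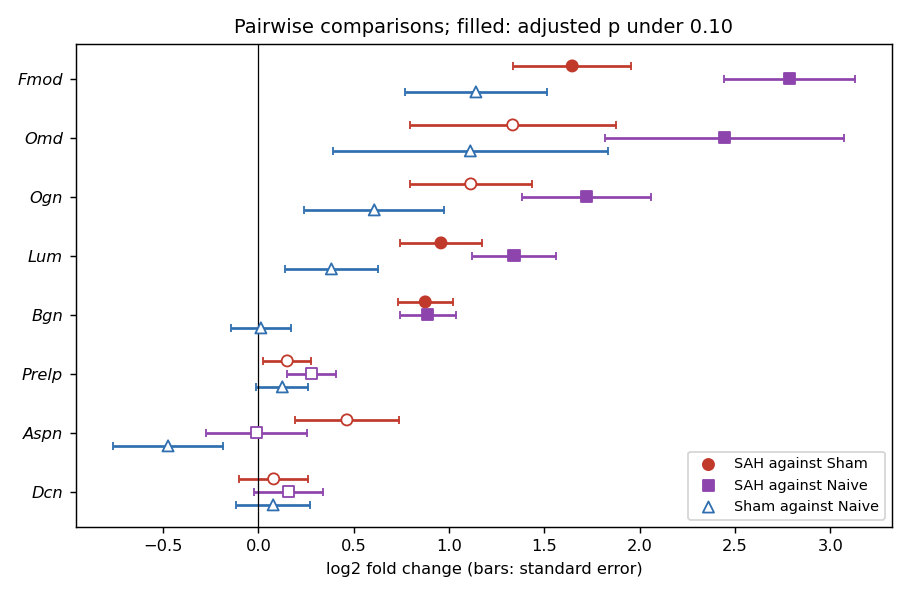
Log2 fold change of the 8 tested members in SAH against Sham, SAH against Naive and Sham against Naive, with bars of 1 SE from the fit of the 3 groups and filled symbols for an adjusted p under 0.10. Bgn lay at 0.88 and 0.89 in both SAH comparisons and at 0.01 between Sham and Naive, whereas Fmod lay at 1.65, 2.79 and 1.14.

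Because the members share tissue and library, each was also set against Dcn of the same mouse. The Fmod to Dcn ratio of CPM was 0.199 to 0.512 in SAH, 0.107 to 0.145 in Sham and 0.0428 to 0.0648 in Naive mice. The SAH and control mice did not overlap, and the ratio was 1.99 higher in SAH on the log2 scale (two-sided exact permutation p = 0.00952, the smallest that the 210 splits can give). The ratio to Dcn was also higher for Ogn, by 1.16 (exact p = 0.0190), Lum, by 1.02 (exact p = 0.0286), and Bgn, by 0.75 (exact p = 0.0190), with overlapping mice. For Omd the log2 difference was 1.54 (exact p = 0.0571), for Prelp 0.07 (exact p = 0.686) and for Aspn 0.04 (exact p = 0.914). In all 15 ratios were computed, 7 to Dcn and 8 to the fibroblast markers below, and these p-values are not adjusted.

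Fibroblast markers of meninges and vessels were also higher in SAH than in the pooled control mice. Of the 10 listed genes 9 were tested and 6 were higher in SAH than in control (Crabp2, Slc22a6, Aldh1a2, Slc6a13, Foxc1 and Gjb2), with a median log2 fold change of 0.98, and no marker was at 0 in every mouse. By kind of control, 1 of 9 was higher against Sham (Foxc1, median 0.68) and 7 of 9 against Naive (median 1.42), and the median of Sham against Naive was 0.76. Their summed level was 81.0, 76.0, 39.0 and 66.4 CPM in SAH mice 1 to 4, 43.3, 48.6 and 42.1 CPM in Sham and 31.7, 31.1 and 35.6 CPM in Naive mice. SAH mouse 3 was lowest of the SAH mice here too and lay below each Sham mouse, and each Sham mouse lay above each Naive mouse.

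Fmod per summed fibroblast marker CPM was 0.281 to 0.442 in SAH, 0.160 to 0.205 in Sham and 0.0894 to 0.129 in Naive mice, without overlap. The log2 difference of SAH to control was 1.38 (two-sided exact permutation p = 0.00952). Ogn per marker CPM was 0.164 to 0.280 in SAH, 0.148 to 0.159 in Sham and 0.118 to 0.155 in Naive mice, also without overlap between SAH and control (0.55, exact p = 0.00952). Lum rose by 0.40 (exact p = 0.0381), and the differences were 0.92 for Omd (exact p = 0.105) and 0.14 for Bgn (exact p = 0.476). Relative to the markers, Dcn fell by 0.61 (exact p = 0.0381), Prelp by 0.54 (exact p = 0.0286) and Aspn by 0.58 (exact p = 0.0476), and for these 3 the SAH mice overlapped the Sham mice and lay below every Naive mouse. Aspn per marker CPM was 0.0233 to 0.0325 in SAH, 0.0277 to 0.0325 in Sham and 0.0442 to 0.0713 in Naive mice. The marker sum weighs each gene by its level, so these ratios depend on the abundant markers. Its largest part was Slc13a3 (control mean 13.8 CPM), with a log2 fold change of 0.38 beside the marker median of 0.98. The part of cell number in the members' changes was not tested.

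**Figure D4:**
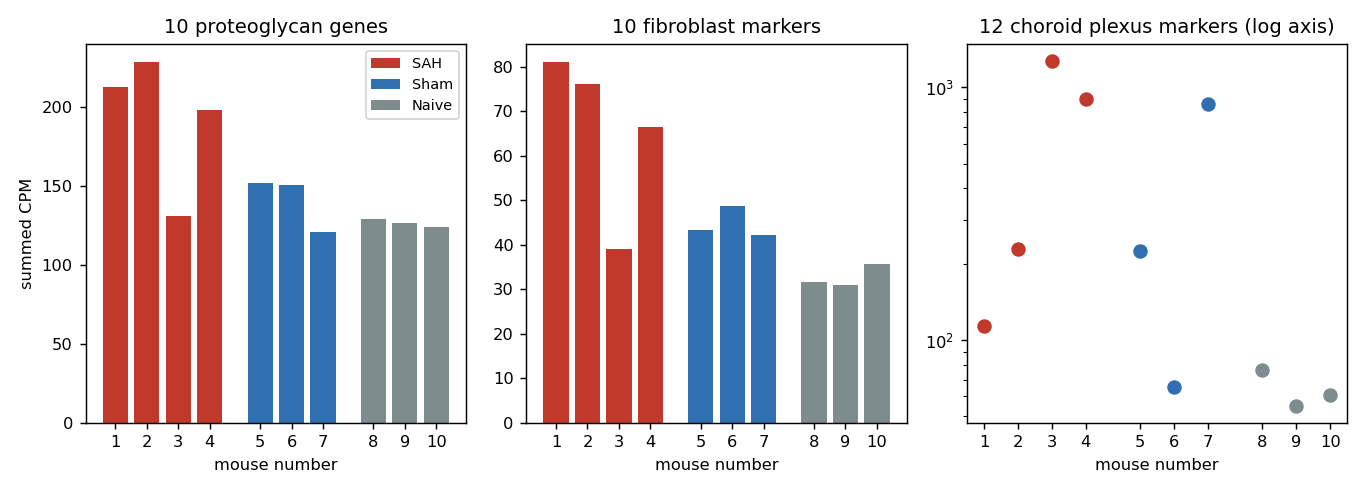
Summed CPM in each mouse of the 10 members (left, bars), of the 10 fibroblast markers (middle, bars) and of the 12 choroid plexus markers (right, points on a log axis), coloured by group. SAH mouse 3 had the lowest sum of the 4 SAH mice for the members (131.3 CPM) and the fibroblast markers (39.0 CPM) and the highest for the choroid plexus markers (1269 CPM).

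Markers of other cell types of the vessel wall and brain borders were counted in the same way. Of the vascular smooth muscle markers 4 of 5 were higher (Acta2, Myh11, Tagln and Myl9), with summed levels of 50.0 to 80.8 CPM in SAH and 30.5 to 41.0 CPM in control. Border macrophage markers were higher for 5 of 7 (Mrc1, Cd163, F13a1, Ms4a7 and Pf4), with 18.9 to 24.2 CPM in SAH and 6.8 to 12.3 CPM in control. Of the endothelial markers 3 of 7 were higher (Pecam1, Cdh5 and Flt1), at 131.6 to 253.1 against 115.0 to 157.8 CPM. Against Sham mice alone, 2 of the 5 smooth muscle, 3 of the 7 border macrophage and 1 of the 7 endothelial markers were higher. Pericyte markers were called for 0 of 5 (75.6 to 103.8 against 66.0 to 81.2 CPM) and choroid plexus markers for 0 of 12, with a median log2 fold change of 1.16. By kind of control, 0 of the 12 choroid plexus markers were higher against Sham (median 0.52) and 2 against Naive (median 2.55). Their median of Sham against Naive was 1.98. With a choroid plexus covariate in the fit the same 5 members were called, beside 124 of all 14993 genes called higher (470 without it). The log2 fold changes were 2.21 for Fmod, 2.19 for Omd, 1.55 for Ogn, 1.07 for Lum and 0.95 for Bgn. Of other marker lists, neurons had 0 of 4 called, astrocytes 1 of 5 higher (Gfap), hippocampal genes 1 of 6 higher (C1ql2), and oligodendrocytes 4 of 4 lower. Of the 5 blood cell genes 4 were listed at 0 in every mouse (Hba-a1, Hba-a2, Hbb-b1 and Hbb-b2). The cause of these zeros was not tested, and they are not a measure of blood in the tissue. Alas2 was not called (log2 fold change 0.36, adjusted p = 0.546 by edgeR). The part of these cell types in the members' changes was not tested.

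Of the 8 other small leucine-rich proteoglycan genes, Ecm2, Optc, Chad, Chadl, Nyx, Tsku, Podn and Podnl1, 6 were tested and 1 was higher, Ecm2, with a median log2 fold change of 0.13. Ecm2 (chromosome 13, 49600179 to 49628158) is the neighbour of Aspn, 11653 bases away, with an SAH mean of 10.6 ± 1.72 CPM (SD, n = 4) and a control mean of 8.06 ± 0.865 CPM (SD, n = 6). The log2 fold change of Ecm2 was 0.39 (SE 0.11, adjusted p = 0.0862 by edgeR). It did not pass against Sham (adjusted p = 0.457 by edgeR) or Naive mice alone (adjusted p = 0.127).

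Collagens to which the members bind were higher for 4 of 10, with 0 lower and a median log2 fold change of 0.34. These were Col3a1 (1.38, adjusted p = 0.00929 by edgeR), Col1a2 (1.21, adjusted p = 0.00450), Col1a1 (0.91, adjusted p = 0.0217) and Col12a1 (0.47, adjusted p = 0.00779). All 4 passed against Naive mice. Against Sham, Col1a2 and Col12a1 passed, and Col3a1 (adjusted p = 0.112 by edgeR) and Col1a1 (adjusted p = 0.213) did not. Col3a1 and Col1a1 encode chains of the fibrillar collagens III and I, and Col12a1 a chain of the fibril-associated collagen XII. The type V chains Col5a1 (-0.15) and Col5a2 (0.30), the type VI chains Col6a1 (-0.04), Col6a2 (0.39) and Col6a3 (-0.09), and Col14a1 (-0.01) did not pass. Of the elastic and adhesive partners 2 of 7 tested were higher. Fn1, which encodes fibronectin, changed by 0.69 (adjusted p = 0.0166 by edgeR), and Eln, which encodes elastin, by 0.43 (adjusted p = 0.0593). Against Sham, Fn1 passed (adjusted p = 0.0807 by edgeR) and Eln did not (adjusted p = 0.338). Against Naive mice, neither passed (adjusted p = 0.110 for Fn1 and 0.138 for Eln by edgeR).

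Of the growth factors that members bind 0 of 7 were called, with a median log2 fold change of 0.22, and Tgfb1, Tgfb2 and Tgfb3 stood at 0.22, 0.14 and -0.06. Of the receptors 1 of 9 was higher, Tlr2, which encodes a Toll-like receptor. Its SAH mean was 1.96 ± 0.522 CPM (SD, n = 4) and its control mean 1.04 ± 0.243 CPM (SD, n = 6). The log2 fold change of Tlr2 was 0.91 (SE 0.23, adjusted p = 0.0528 by edgeR), and that of Tlr4 was 0.32 (adjusted p = 0.422). Tlr2 did not pass against Sham (adjusted p = 0.288 by edgeR) or Naive mice alone (adjusted p = 0.153).

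Among the enzymes that build chondroitin and dermatan sulfate 0 of 21 tested were higher and 1 was lower, with a median of -0.01. The lower gene was Chst3, a chondroitin sulfotransferase (log2 fold change -0.65). Chst3 did not pass against Sham (adjusted p = 0.104 by edgeR) and passed against Naive mice (adjusted p = 0.0232). Among the enzymes of keratan sulfate 0 of 7 were called, with a median of 0.09. Of 9 tested processing enzymes 2 were higher and 1 lower. Pcolce, an enhancer of procollagen cleavage, changed by 1.38 (adjusted p = 0.00375 by edgeR) and Mmp2, a gelatinase, by 0.59 (adjusted p = 0.0239). Mmp2 did not pass against Sham (adjusted p = 0.159 by edgeR) or Naive mice alone (adjusted p = 0.102). Adamts4, an aggrecanase, changed by -0.93 (adjusted p = 0.00803 by edgeR, and 0.103 against Sham). Its SAH mean was 19.2 ± 5.45 CPM (SD, n = 4) and its control mean 36.8 ± 5.17 CPM (SD, n = 6).

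The genes whose pattern was most like the average of the 8 tested members were found by the mean absolute difference of mean-centred log2 CPM over the 10 mice. They were Pf4 (0.109), Colec12 (0.126), Igfbp2 (0.130), Efemp1 (0.140), Thbd (0.140), Col4a6 (0.144), Tbx18 (0.155), Col1a1 (0.158), Aebp1 (0.159) and Col1a2 (0.166). By the same measure the nearest gene was Tagln for Bgn (0.0987), Igfbp2 for Lum, Slc22a6 for Ogn (0.191), Crabp2 for Omd (0.340) and C2, a complement gene, for Fmod (0.312). The nearest genes of Dcn, Prelp and Aspn were Exd1, Polk and Ccdc89. Among the members the closest pairs were Dcn with Prelp (0.202) and Bgn with Lum (0.222). The genes compared share the same 10 libraries, and the measure is a description.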

How the data were processed

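RNA-seq libraries (ribosomal RNA depleted, stranded, 50-base paired-end reads, RNA integrity number above 9) of 10 mice were used. The authors aligned reads to mm9 with STAR and counted fragments per gene name with featureCounts 1.6.2. The deposited values are raw counts, without normalization. CPM scaled by TMM, and CPM per kilobase of exon, were computed here from these counts.

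edgeR 4.0.16 in R 4.3.3 was run on all 10 mice with filterByExpr (minimum count 10, minimum total count 15; 14993 genes kept), the quasi-likelihood test, and p-values adjusted by the Benjamini-Hochberg method over all genes tested. An adjusted p under 0.10 was called. SAH was compared with the pooled control mice, and the 3 pairwise comparisons came from 1 fit of 3 groups. The SE is the size of the log2 fold change divided by the square root of F. The script was tested on simulated data. Ratios were compared by exact permutation tests in scipy 1.17.1 (Python 3.11.15). The libraries are separate mice, and the sources used here give no batch that differs between groups. The limit of 3 counts that a count of 0 allows covers counting error only.

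The genome coordinates and upstream windows are those of mm9 (NCBIM37), with the most upstream start of the files or of the GENCODE annotation within 1000 bases. Both ends matched the annotation for 86.8% of 223620 exons. Protein sequences were not used here.

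The members and lists were chosen with earlier results of these data known. The genes named are the 10 members, the other genes of the family, list genes that pass the threshold or are needed to state a list, the 10 genes nearest in pattern to the members' average and the nearest genes of each member. Alternatives were DESeq2 1.42.0, its size factors, library size alone, no filter on low counts, a minimum of 10 counts in each mouse, a robust fit, an adjusted p under 0.05, 1 kind of control mouse alone, fits restricted to the compared mice, a choroid plexus covariate, and each mouse left out in turn.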

Additional observations from a re-analysis of the deposited data

Results flagged for a closer look

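The SAH and the control mice for each of the 8 tested members made 16 groups of 4 or 6 mice. In 4 of these, 1 mouse stood far from the others by Dixon's ratio (gap to the next mouse over the range). The limit used is one that chance passes in about 1 in 20 independent groups. These groups share the same 10 libraries and the control groups pool Sham and Naive mice, so that rate does not apply strictly. Lum was 5.86 CPM in SAH mouse 3, and the other SAH mice lay between 9.93 and 10.6 CPM. Lum was 6.15 CPM in Sham mouse 7, above the next control mouse at 4.20 CPM. Aspn was 0.909 CPM in SAH mouse 3, below the next SAH mouse at 2.03 CPM. Aspn was 2.26 CPM in Naive mouse 8, above the next control mouse at 1.59 CPM.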

How the results depend on the processing

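No paired analysis was possible because each mouse carries a number of its own and no number is shared between groups. Of 5 members higher in SAH than in control, 0 were called with Sham mice alone as control, and 4 to 6 with 1 mouse left out. The fits without 1 mouse called 223 to 686 of all genes higher. In the robust fit (450 of all genes higher), with Naive mice alone and at an adjusted p under 0.05 the count was 4, without Omd. Bgn, Lum, Fmod and Ogn were called in each of the 10 fits without 1 mouse, and Omd in 4. Of 3 members higher in SAH than in Sham, 1 was called in the robust fit and 0 with only the mice of these 2 groups. At an adjusted p under 0.05 the count was 1, and with 1 mouse left out 0 to 4. The robust fit called 58 of all genes higher, and the fits without 1 mouse 6 to 166. Of 5 higher than in Naive, 3 to 6 were called with 1 mouse left out. Between Sham and Naive mice the count was 0, with 1 (Fmod, of 2 genes called higher and 1 lower) when only these mice were fitted and 0 to 0 with 1 mouse left out. Members that were not called changed sign in some settings. Aspn in SAH against control stood at -0.0076 with Naive mice alone, and in SAH against Naive at 0.0025 with library size alone. With 1 mouse left out, Aspn ran from -0.11 to 0.20 in SAH against Naive (positive without SAH mouse 3 or Naive mouse 8). Dcn ran from -0.033 to 0.23 in SAH against control (negative without SAH mouse 2), from -0.13 to 0.24 against Sham (negative without SAH mouse 2 or Sham mouse 7) and from -0.084 to 0.29 between Sham and Naive (negative without Sham mouse 5 or 6). Bgn between Sham and Naive ran from -0.071 to 0.13 (negative without Sham mouse 6 or 7 or Naive mouse 10). The cause was not tested. Over all genes, SAH against control gave 470 higher and 231 lower calls by edgeR, 632 and 398 by DESeq2, 201 and 81 with Naive mice alone, 12 and 0 with Sham mice alone, and 124 and 47 with the choroid plexus covariate. Kera and Epyc were kept out by the filter on low counts, and 0 of these 2 were called without it by edgeR or DESeq2 (1 at an unadjusted p under 0.05 by edgeR, Epyc).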
